A study of Mus musculus with 4 samples.

Results

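Potassium channel genes were examined for binding of NKX2.2, a homeodomain transcription factor of pancreatic endocrine cells, in alphaTC6, a mouse cell line labelled as alpha cells and of wild-type genotype. The genes were taken by symbol, from the protein-coding genes of the mouse assembly GRCm38, in the Kcna to Kcnv subfamilies of pore-forming and auxiliary subunits, 88 of 21887 protein-coding genes. The series has 2 NKX2.2 chromatin immunoprecipitation (ChIP-seq) samples and 2 input samples, input being DNA sequenced without the antibody step. What is analysed here is 1 list of 7384 peak summits, the base of highest enrichment in each peak that the authors called in ChIP against input. It carries no value per library, so no value below has a replicate error, no difference was tested, and depth is unknown.

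Potassium channels are membrane pores that let potassium leave the cell and so pull the membrane potential down. In islet cells they end or prevent the electrical activity that opens calcium channels and drives hormone release, and in alpha cells the level of potassium conductance affects the height and rate of the action potentials that accompany glucagon release. Voltage-gated channels open on depolarization, inward rectifiers and tandem-pore (K2P) channels hold the resting potential, and calcium-activated channels open when calcium has entered. Auxiliary subunits change the gating and the trafficking of the pores they join.

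Summits were joined to a gene where they fell inside it or at most 10 kb away. Of the 88 potassium channel genes 25 had a summit, 28.4% (95% Wilson interval 20.04% to 38.6%, covering counting error only), and 63 had none. Over all protein-coding genes the share was 25.8%, so the family as a whole stood near the background. Potassium channel genes are long, with a median of 32.7 kb against 17.2 kb for all protein-coding genes, and long genes hold summits more often. All protein-coding genes were therefore split by length into 3 classes of equal size. In the shortest class 2 of 16 potassium channel genes had a summit, 12.5%, against 16.3% of all genes. In the middle class 8 of 25 had one, 32.0%, against 27.1%, and in the longest 15 of 47, 31.9%, against 34.1%. If every potassium channel gene had the share of its class, 25.4 of them would have a summit, and with 10 length classes 26.9. The observed count was thus not above the level for genes of this length. The summits are 37, none counted at more than 1 potassium channel gene, with 15 genes holding 1 summit, 8 holding 2 and 2 holding 3. That was 0.42 summits per potassium channel gene, against 0.361 per protein-coding gene. Per Mb of gene with its 10 kb to either side it was lower, 3.41 against 5.31. These differences were not tested.

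**Figure D1:**
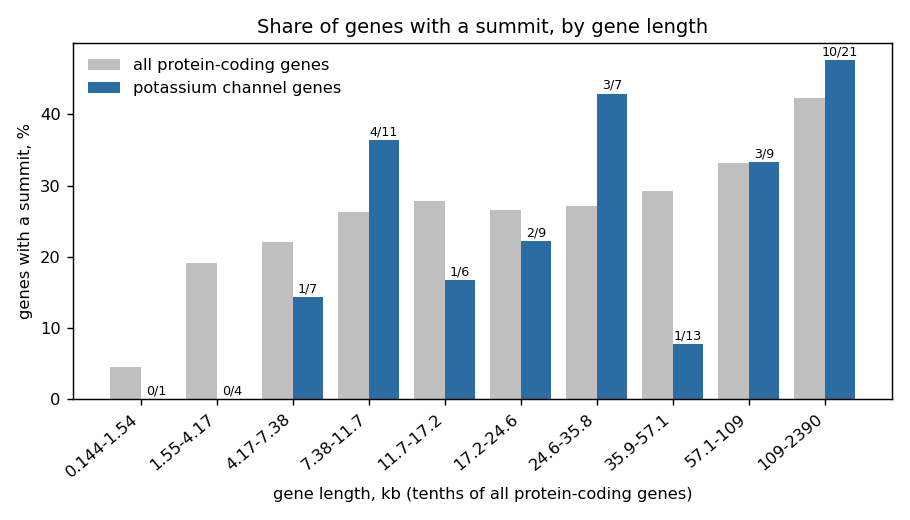
Share of genes with a summit in or within 10 kb (vertical axis, %) by gene length (horizontal axis, kb, 10 classes of equal size), for all protein-coding genes (grey) and potassium channel genes (blue, with the counts above the bars). The share of all genes is 4.57% in the shortest class and 42.3% in the longest, where 10 of 21 potassium channel genes had a summit.

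The counts by subfamily each rest on few genes, and differences between them were not tested. Among the 40 pore-forming voltage-gated genes (Kcna to Kcnd, Kcnf to Kcnh, Kcnq, Kcns and Kcnv) 9 had a summit, 22.5%, against 11.7 genes at the share of their 3 length classes. All 4 Kcnc genes, which encode rapidly gating, high-threshold channels, lacked one, where 1.22 would have it at that share. So did the 10 genes of Kcnf, Kcng, Kcns and Kcnv, whose products are silent on their own and modify other delayed rectifier pores, where 2.60 would have it. Of 8 Kcna genes 1 had one, of 8 Kcnh genes 3, of 3 Kcnd genes 1 and of 5 Kcnq genes 2. In the other groups a summit was found at 4 of 14 inward rectifier genes (Kcnj) beside 4.07 at the share of their length classes, and at 5 of 14 K2P genes (Kcnk) beside 4.03. It was found at 2 of 4 small- and intermediate-conductance calcium-activated genes (Kcnn) beside 1.22, and at 2 of 4 genes of the Slo group (Kcnma, Kcnt and Kcnu) beside 1.36. Of the 12 auxiliary subunit genes (Kcnab, Kcne and Kcnmb) 3 had one, beside 3.06. Each of these counts was within 1 gene of that number.

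**Figure D2:**
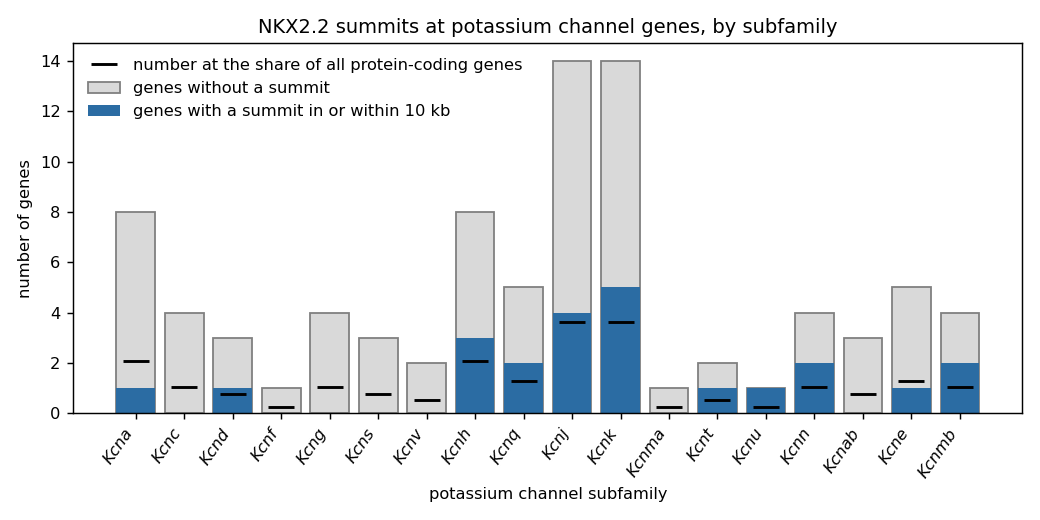
Number of potassium channel genes in 18 subfamilies (whole bar), with the genes that had an NKX2.2 summit in or within 10 kb in blue and the rest in grey; the black marks give the number at 25.8%, the share of all protein-coding genes. Kcnk had 5 of 14 genes with a summit and Kcnj 4 of 14, while Kcnc, Kcnf, Kcng, Kcns, Kcnv, Kcnma and Kcnab had none.

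The promoters that carried a summit are shown first, because there a peak and a listed gene start coincide. Summits at Kcnn1 and Kcnk13, described below, also lay near a gene boundary or listed start, but outside the windows used here. RefSeq start sites with 250 bases before and 50 bases after the start were at hand for 64 of the 88 genes, in 84 windows on GRCm38.p6. A summit lay in 2 windows, those of Kcnj9 and Kcnn3, or 2.38%, against 6.82% of 21263 protein-coding windows. Kcnj9, at chr1:172320508-172329322 on the minus strand, encodes a subunit of the inward rectifiers that G proteins open. Its summit at position 172329331 lay 9 bases before the start and had a score of 33.9. Kcnn3, at chr3:89520164-89672494 on the plus strand, encodes a small-conductance calcium-activated channel. Its summit at position 89520048 lay 116 bases before the start and had a score of 11.03. The windows run 5′ to 3′ along the gene, chr1:172329273-172329572 on the minus strand and chr3:89519914-89520213 on the plus strand. Capitals mark matches on either strand to AAGTG, the core of the NK2 homeodomain motif, or to the KLF pattern CCNCNCCC.
Kcnj9: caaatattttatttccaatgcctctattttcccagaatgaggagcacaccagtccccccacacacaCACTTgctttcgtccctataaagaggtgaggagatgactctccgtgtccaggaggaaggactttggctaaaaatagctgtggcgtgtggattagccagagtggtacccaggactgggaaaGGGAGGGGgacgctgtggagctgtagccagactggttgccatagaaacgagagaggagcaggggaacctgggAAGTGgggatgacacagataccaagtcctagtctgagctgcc
Kcnn3: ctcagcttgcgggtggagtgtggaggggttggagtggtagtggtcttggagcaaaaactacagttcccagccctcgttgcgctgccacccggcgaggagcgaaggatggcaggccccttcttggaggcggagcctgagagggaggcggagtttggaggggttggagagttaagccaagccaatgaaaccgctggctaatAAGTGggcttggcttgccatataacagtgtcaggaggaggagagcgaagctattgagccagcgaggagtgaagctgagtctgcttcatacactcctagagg

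The longer NK2 pattern TNAAGTG, which contains the core, was searched on both strands, as were a FOX pattern (TGTTTAC) and the cyclic AMP response element (TGACGTCA). Neither window held any of these 3, and the Kcnj9 window held 1 match to the KLF pattern, 57 to 64 bases before the start. The core alone, added after the sequences had been seen, matched at 2 places in the Kcnj9 window and at 1 in the Kcnn3 window, where it lay 47 to 51 bases before the start. Over all potassium channel windows TNAAGTG was present in 7 of 84, 8.33%, against 10.8% of all protein-coding windows. The KLF pattern was present in 61 of 84, 72.6%, against 56.6%, and the NK2 core in 47.6% against 45.2%. Among all protein-coding windows the core was in 46.0% of those with a summit and 45.2% of those without. For TNAAGTG these shares were 9.44% and 10.9%, and for the KLF pattern 70.6% and 55.5%. A match to the core thus does not mark a window with a summit. The FOX pattern was in 0 of 84 against 3.01%, and the cyclic AMP response element in 0 of 84 against 2.23%. The median number of CpG dinucleotides per window was 9 for potassium channel genes, 13 for all protein-coding genes and 22 for the 1451 windows that held a summit. The part of CpG content in the low number of potassium channel windows with a summit was not tested.

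The scores of the 37 summits spanned the range of the list. A score is the authors' −log10 q-value of the peak, and the list as a whole had a median of 13.7, with its middle 50% from 7.98 to 27.7. At potassium channel genes the lowest score was 2.10, the median 12.1 (95% interval 9.61 to 17.3, from the binomial distribution of ranks) and the highest 553. The median over all summits at protein-coding genes was 13.5. Scores of 100 or more belonged to 3 of the 37 summits, 8.11%, against 4.76% of summits at protein-coding genes. Counted by gene, 3 of 88 potassium channel genes had such a summit, 3.41%, against 1.65% of all protein-coding genes. These 3 genes were Kcne2, Kcnk13 and Kcnd3. Neither share was set against genes of the same length class, and the differences were not tested.

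**Figure D3:**
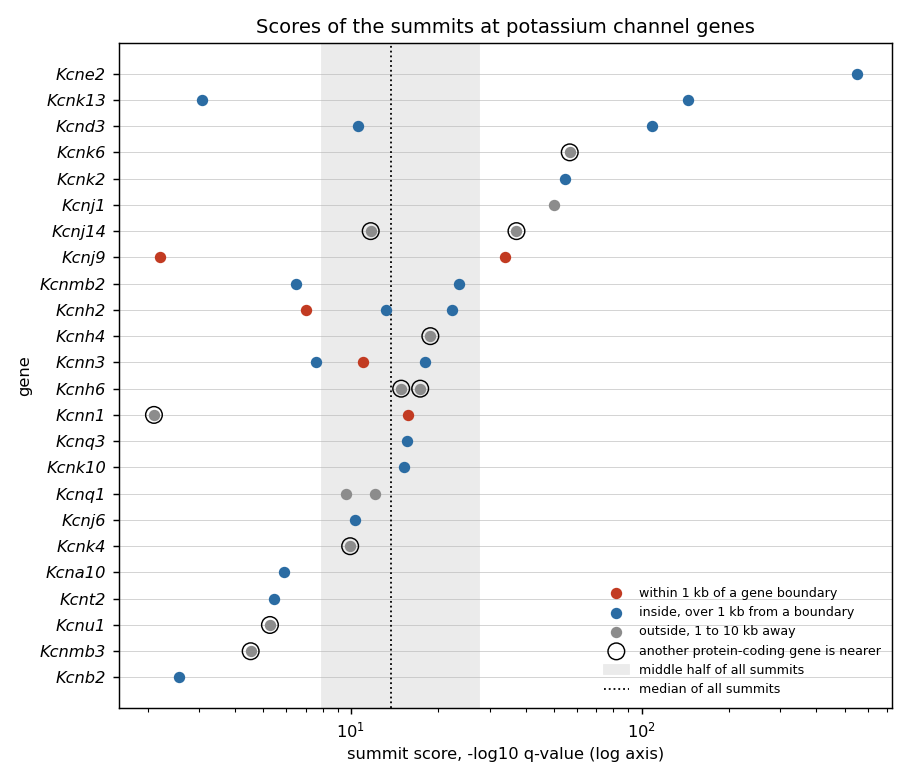
Score of 36 of the 37 summits (horizontal log axis, −log10 q-value) by potassium channel gene (vertical axis, in order of the highest score), coloured by place and circled where another protein-coding gene is nearer. The dotted line and the grey band are the median and the middle 50% of the whole list; Kcne2 stands alone at 553, followed by Kcnk13 at 144 and Kcnd3 at 109.

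Kcne2, a small single-span subunit that joins voltage-gated pores such as those of Kcnq1 and Kcnh2, had the highest summit of the family. The gene is only 5.75 kb long, at chr16:92292389-92298133, and the summit at position 92294380 lay inside it, 1991 bases from its 5′ boundary and at -1236 relative to the start that the promoter table lists. Its score of 553 ranked 25 in the list, within the top 0.339%, and by highest summit Kcne2 ranked 22 among the 5654 protein-coding genes with one. The next summit was 106 kb away. Smim11, the only other protein-coding gene within 10 kb, lay 6861 bases off. Kcne1, the neighbouring gene of the same subfamily, had no summit within 10 kb. Kcne3, Kcne4 and Kcne1l also had none.

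Kcnk13, a K2P channel of the halothane-inhibited kind, had 2 summits in a gene of 99.5 kb on chromosome 12. The stronger, at position 100003290 with a score of 144 and rank 235, lay 40.1 kb inside the gene. The weaker, at position 99964680, lay 181 bases after a listed start and had a score of 3.06, near the bottom of the list. The strong signal at this gene was therefore intragenic and the one at its start weak. Kcnk2, a K2P channel gated by stretch and lipids, had a summit with a score of 54.6 at position 189341786 of chromosome 1. That summit was 61.0 kb inside the outermost boundary of the gene, yet 1.57 kb after one of its listed internal starts. Kcnk10, its close relative, had 1 summit with a score of 15.2, 53.2 kb inside the gene.

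The summits counted at the other K2P genes lay at or in neighbours. At Kcnk6 the summit (score 56.6, position 29238234 of chromosome 7) was 5.71 kb outside the gene and inside Yif1b, 640 bases from its boundary. At Kcnk4 the summit (score 9.95) lay 3.58 kb outside and 38 bases from a boundary of Esrra. The 9 K2P genes without a summit include Kcnk3 and Kcnk16, which encode background channels studied in islet cells, and their nearest summits were 22.7 and 76.8 kb away.

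Among the voltage-gated genes Kcnd3, which encodes a rapidly inactivating A-type channel, had the highest score. It spans 222 kb at chr3:105451890-105674002. A summit at position 105521448, 69.6 kb inside, had a score of 109 and rank 340, and another at 105617626 had 10.5. Kcnd2, of the same subfamily and 514 kb long, had none within 220 kb, and Kcnd1 on the X chromosome had none within 10 kb. The longest of the 3 Kcnd genes was thus without a summit.

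Kcnh2, which encodes a delayed rectifier best known for repolarizing heart muscle cells, was 1 of 2 potassium channel genes with 3 summits, a number reached by 2.27% of potassium channel genes and 2.02% of all protein-coding genes. All are on chromosome 5, with 6.80 and 8.17 kb between neighbours. The summit at 24337426, 14.3 kb inside the gene, had a score of 22.3. That at 24344223, 7.46 kb inside, had 13.2, and that at 24352394, 710 bases before the 5′ boundary, had 7.03. The start that the promoter table lists for Kcnh2 is an internal one, and relative to it the 3 summits lie at -7.83, -14.6 and -22.8 kb, all before it. At Kcnh6, a relative of Kcnh2, 2 summits with scores of 14.9 and 17.3 lay 4.19 and 1.88 kb before the gene and inside Ace3. At Kcnh4 the summit (score 18.8) lay 2.14 kb past the 3′ boundary and 26 bases from a boundary of Rab5c.

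Kcnq1, whose product gates slowly when joined by Kcne1, had 2 summits, both just outside a gene of 320 kb. They lay 2.48 kb beyond one end with a score of 9.61 and 1.64 kb beyond the other with 12.1, and none was inside. Kcnq3, a subunit of the muscarine-sensitive current, had 1 summit 47.2 kb inside with a score of 15.6. Kcnb2, a delayed rectifier, had a weak summit inside the gene with a score of 2.56, rank 7316. Kcna10 had 1 with 5.89. The remaining Kcna genes had none, and the nearest summits to Kcna2 and Kcna3 were 73.8 and 151 kb away.

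In the inward rectifiers the pattern was mixed. Besides the summit at its start, Kcnj9 had a second one 299 bases past its 3′ boundary with a score of 2.204, which was also 366 bases from Igsf8. Kcnj6, another G protein-gated subunit, had 1 summit with a score of 10.4, 82.4 kb from a boundary in a gene of 253 kb. Kcnj3 and Kcnj5, the further members of that set, had none, with the nearest at 46.1 and 25.2 kb. Kcnj1, a renal secretory channel, had a summit with a score of 49.95 at position 32369604 of chromosome 9, 2.81 kb before its 5′ boundary, at -24.4 kb from its listed start, and with no other protein-coding gene within 10 kb. The 2 summits at Kcnj14 (scores 11.7 and 37.1) lay 287 bases from Cyth2 and inside Grwd1. Kcnj8 had none within 42.8 kb.

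Of the small- and intermediate-conductance genes, Kcnn3 and Kcnn1 had summits. Kcnn3 had, besides the one before its start, summits 26.9 and 58.7 kb inside with scores of 18.0 and 7.61, so its start did not hold its highest score. Kcnn1 had 1 summit 89 bases inside its 5′ boundary, at -2.34 kb from its listed start, with a score of 15.7, and 1 with a score of 2.10 that lay inside Arrdc2. Kcnn4, the intermediate-conductance channel, had none within 53.1 kb. Kcnma1, the large-conductance pore and, at 713 kb, the longest gene of the family, had no summit, and its nearest was 529 kb away. It lies on chromosome 14, which held 76 summits in all. The 3 potassium channel genes of chromosome 14 (Kcnk5, Kcnk16 and Kcnma1) and the 2 of the X chromosome (Kcnd1 and Kcne1l) were without a summit, and the part of the chromosome in this was not tested. Leaving these chromosomes out gave 25 of 83 genes, 30.1%, against 27.7% of all protein-coding genes, 5552 of 20070. With them 5654 of 21887 protein-coding genes had a summit, so few genes of any kind on chromosomes 14 and X had one.

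Kcnmb2 and Kcnmb3, auxiliary subunits of the large-conductance channel, had 2 and 1 summits, while Kcnmb1 and Kcnmb4 had none. The pore gene Kcnma1, on chromosome 14, had none either. The summits at Kcnmb2 lay 83.4 and 143 kb inside the gene with scores of 6.48 and 23.5. The one at Kcnmb3 (score 4.52) lay in Zfp639. Kcnt2, a sodium-activated channel, had 1 summit inside with a score of 5.45. Kcnu1, a sperm channel, had 1 with 5.27 that lay inside Ash2l, 7.44 kb from Kcnu1.

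The place of the summits was then set against gene boundaries, the outermost annotated ends of a gene. Of the 37 summits 5 were within 1 kb of a boundary, 13.5%, against 32.8% of 7902 pairs of a summit and a protein-coding gene. Inside the gene and over 1 kb from a boundary were 18, 48.6%, against 37.9%, and outside were 14, 37.8%, against 29.3%. Counted by gene, Kcnh2, Kcnj9, Kcnn1 and Kcnn3 had a summit within 1 kb of a boundary, 4.55% of 88, against 11.4% of all protein-coding genes. In the longest of the 3 length classes the counts were 2 of 47, 4.26%, against 11.9%. In that class 23.4% of potassium channel genes and 20.7% of all genes had a summit inside and over 1 kb from a boundary. For the genes with a listed strand, 4 of 28 summits lay within 1 kb of the 5′ boundary, 14.3% against 31.0%, and 1 within 1 kb of the 3′ boundary, 3.57% against 3.04%. By count the 5′ share was below that of all genes, while the 3′ share was close to it. The potassium channel shares rest on 5 summits, and the difference was not tested.

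**Figure D4:**
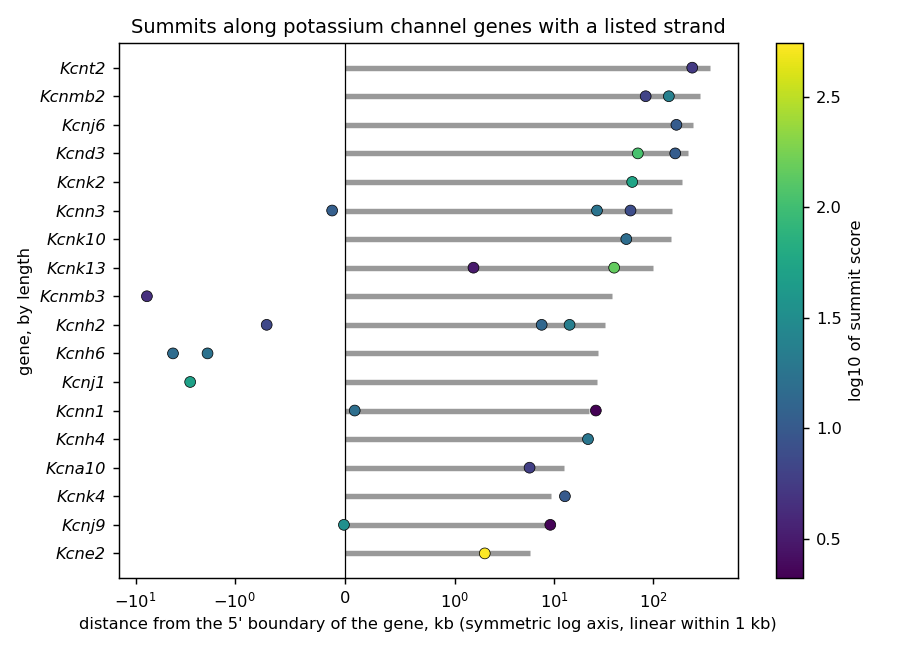
Place of the summits (points, coloured by log10 of the score) along the potassium channel genes that have a summit and a listed strand. The horizontal axis is the distance from the 5′ boundary in kb (symmetric log scale, linear within 1 kb) and grey bars span the genes; 4 points lie within 1 kb of the 5′ boundary, those of Kcnh2, Kcnj9, Kcnn1 and Kcnn3, and the brightest, Kcne2, lies inside its gene.

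Neighbouring genes took part of the count. Another protein-coding gene lay nearer to 10 of the 37 summits, 27.0%, against 27.1% of pairs over all genes. When each summit was given to its nearest gene alone, 18 potassium channel genes kept one, 20.5%, against 19.2% of all protein-coding genes. Kcnh4, Kcnh6, Kcnj14, Kcnk4, Kcnk6, Kcnmb3 and Kcnu1 then had none. Another summit lay within 10 kb of 7 of the 37, 18.9%, against 21.4% of summits at protein-coding genes. The farthest summit counted was 7.68 kb from its gene, at Kcnmb3. Among the genes with none counted, the nearest summits were 10.3 kb from Kcna7, 11.9 kb from Kcnj10 and 13.1 kb from Kcnj4. With 1 kb around the gene the share was below the background, 17.0% against 19.2%, and with 50 kb it was above, 52.3% against 43.8%. Neither of these shares was set against genes of the same length class.

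A list of 21 potassium channel genes known from work on islet cells had 10 with a summit, 47.6%, beside 25.8% of all protein-coding genes and 7.0 genes at the share of their 10 length classes. Those with a summit include Kcnb2, Kcnd3, Kcnh2, Kcnh6, Kcnj6, Kcnj9, Kcnk2, Kcnn3 and Kcnq1, and the 18 summits of the islet list had a median score of 11.6. With a score minimum of 10 the islet list had 8 genes with a summit, beside 18.2% of all protein-coding genes at that minimum. With each summit given to its nearest gene it had 9, beside 19.2% of all protein-coding genes. Neither of these counts was set against genes of the same length class. The list was drawn up with earlier results of these data known, so its count is a description. The 11 of the islet list without a summit are Kcna2, Kcna3, Kcnd1, Kcnd2, Kcnj3, Kcnj5, Kcnj8, Kcnk3, Kcnk16, Kcnma1 and Kcnn4. Of these, Kcnd1, Kcnk16 and Kcnma1 lie on chromosome 14 or X, where few genes of any kind had a summit. The 67 other potassium channel genes had 15 with a summit, 22.4%, beside 19.9 genes at the share of their length classes.

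Partners of potassium channels outside the symbol rule were counted the same way. Of 13 auxiliary genes 7 had a summit, 53.8%, beside 3.99 at the share of their 10 length classes, with 24 summits in all. These were Dpp6 (9 summits, highest score 74.1) and Dpp10 (5, highest 329), both surface partners of the A-type channels, and Kcnip1 (2, highest 71.8), Kcnip3 (3, highest 30.8) and Kcnip4 (3, highest 184), calcium sensors that bind the same pores. Amigo1, a cell surface partner of delayed rectifiers, had 1 with 8.87, and Abcc9, a sulfonylurea receptor, 1 with 4.39. Kcnip2, Kcnrg, Lrrc26, Lrrc38, Lrrc52 and Lrrc55 had none. Dpp6, Dpp10, Kcnip1 and Kcnip4 are 910, 1510, 364 and 1140 kb long, while the longest of the 10 length classes starts at 109 kb. Their counts of summits were not set against genes as long as these.

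Of 10 voltage-gated calcium channel pore genes 6 had a summit, 60.0%, beside 3.80 at the share of their 10 length classes, and of 10 sodium channel pore genes 1, beside 3.91. The calcium channel genes with one were Cacna1a, Cacna1c, Cacna1e, Cacna1g, Cacna1h and Cacna1i, with Cacna1c at 9 summits and a highest score of 537, and the sodium channel gene was Scn10a, with a score of 7.60. Cacna1c is 610 kb long, and its count was not set against genes of that length. The potassium channel share of 28.4% lay between these lists of 10, and the differences were not tested. A peak list cannot show which cell type it came from. For the label, the islet loci Gcg, Irx2, Pax6 and Nkx2-2 each had a summit, and Ins1, Ins2, Sst and Ppy had none.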

How the data were processed

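NKX2.2 ChIP and input libraries of alphaTC6 cells, 2 of each by their titles, were processed by the submitters with FastQC, Bowtie2 and MACS2 on the build mm10, per the submitters' processing notes. mm10 is another name for GRCm38. The deposited scores are taken as the authors' −log10 q-values, as MACS2 writes them. Versions, duplicate handling and pooling of replicates are not given in the sources used here. The list has 7384 summits, of which 7380 on assembled chromosomes were compared with 21887 protein-coding genes of GRCm38.p6 (RefSeq). Positions count from 1.

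Summits were joined to genes within 10 kb, and shares were set beside all protein-coding genes and length classes. Promoter sequences and strands are those of RefSeq, with 24 of 88 genes unmatched. Samples had no values of their own, so no test was run. The genes described singly, 28, are those among the 12 with the highest summit, those with 3 or more summits or with one within 1 kb of a boundary, and the islet list. The other genes with a summit, and the listed partners, are named with their counts. Some genes of the symbol rule and the lists are not reported here. Genes and lists were chosen with earlier results of these data known. Alternatives covered distance, score minimum, assignment, membership and merging. The join was checked on simulated data. Tools were pandas 2.3.3 and numpy 2.4.6 with scipy 1.17.1 in Python 3.11.15, and matplotlib 3.10.9 for figures.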

Additional observations from a re-analysis of the deposited data

How the results depend on the processing

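No paired analysis was possible because summits carry only 1 score each, not 1 per sample, so replicates could not be left out either. In the gene body alone 14 potassium channel genes, 15.9% against 13.4% of all protein-coding genes, held 19 summits. Within 1 kb of the gene 15 held 23, and within 50 kb 46 held 81 summits. At a score minimum of 10 there were 23 summits, 3 of them within 1 kb of a boundary. Within 2 kb of a boundary lay 10 of the 37 summits, 27.0%, against 39.5% over all genes. These counts moved by construction, since fewer or more summits could be counted. The count of genes with a summit stayed within 1.5 times of 25 with score minimums of 5 and 10, the nearest gene only, pore-forming subunits only, merging within 500 bp and, chosen after seeing the data, without chromosomes 14 and X. Leaving out those chromosomes could not change it, since no potassium channel gene there had a summit. The median score stayed between 11.3 and 15.2 under the distances, merging and the nearest gene. Splitting genes into 10 length classes in place of 3, also added later, gave 26.9 in place of 25.4 genes. Of 247 counts of summits at the 28 genes described singly, 208 stayed within 1.5 times, 30 were lower and 9 higher. Many of the 208 could not change, so their number does not measure stability. Restricting membership or leaving out chromosomes does not alter the count at a gene that is kept. A gene with no summit cannot gain one under a shorter distance, a score minimum or the nearest-gene rule. The motif windows around summits planned for a genome sequence were not run, and promoters took their place. Depth is unknown, so a gene without a summit is only one where no peak was called.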
